A study of Mus musculus with 24 samples.

Results

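The sine oculis-related homeobox genes, the Eya genes and the Dach genes form a network of transcription factors, coactivators and corepressors. Its members were chosen by name: Six2, Six4, Six5, Eya1, Eya2, Eya3, Eya4 and Dach1. These are 8 of the 18193 genes that carried a single symbol on the array. Each gene was read from the probe set with the highest mean over the 24 arrays, which was 1427436_at for Six2, 1456862_at for Six4, 1427560_at for Six5, 1457424_at for Eya1, 1424127_at for Eya2, 1435443_at for Eya3, 1442542_at for Eya4 and 1433743_at for Dach1. All 8 passed the filter on low values, above the 30th percentile in 24 of 24 arrays, and are therefore among the 14879 genes tested.

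The series profiles both developing jaws with and without the crest deletion. Values are log2 signals from single-colour arrays of total RNA from mouse embryos at embryonic day 12.5 (strain label C57B6). Upper and lower jaw primordia were each cut into a distal and a proximal end, and the 8 groups had 3 arrays each: mandible distal, mandible proximal, maxilla distal and maxilla proximal, labelled knockout or control. The cross was Wnt1cre;Tgfbr2 fl/+ by Tgfbr2 fl/fl. The knockout embryos are described as picked by cleft palate and calvarial defects. The controls were littermates whose genotype the labels do not give, although the cross leaves each of them at least 1 floxed allele. Wnt1-Cre acts in neural crest and its descendants, so epithelium, endothelium and muscle of a knockout embryo keep the TGF-beta type II receptor. Nothing in the labels ties an array to its own embryo or litter, and p-values therefore measure the spread between arrays, which may be technical. The main fit takes all arrays as independent, and whether arrays of 1 number share an embryo is not known.

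The proteins Six2, Six4 and Six5 are homeodomain transcription factors that bind DNA. Eya proteins do not bind DNA themselves. They join these factors as coactivators and carry a phosphatase domain, while Dach proteins recruit corepressors to the same target genes. Pax genes act upstream of the network in several organs, and in the head it is known for its part in crest mesenchyme, cranial placodes, sensory ganglia and muscle precursors.

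RefSeq promoters of build GRCm38.p6, from 250 bases before to 50 bases after a start, were found for 6 members as 8 entries. They are shown for Six2, Eya4 and Dach1, whose signals carried a jaw, a knockout-label and an end difference, and for Six4, which held the one match to a site of this homeobox family. Both strands were searched for TCAGGTT, the MEF3 site of muscle genes, for TGATAC, a site described for the fly homolog sine oculis, for the Smad-binding letters CAGAC, and for the homeodomain core TAATTA. Capitals mark the matches, which may lie on either strand, and all 4 promoters run 5′ to 3′ on the minus strand of the build.
Six2, chr17:85688205-85688504: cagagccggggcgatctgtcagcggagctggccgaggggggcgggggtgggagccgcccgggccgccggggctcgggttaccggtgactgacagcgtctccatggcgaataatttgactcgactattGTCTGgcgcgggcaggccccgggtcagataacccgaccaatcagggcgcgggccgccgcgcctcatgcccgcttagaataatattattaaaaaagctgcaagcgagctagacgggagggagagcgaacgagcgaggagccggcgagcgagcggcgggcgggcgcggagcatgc
Six4, chr12:73113196-73113495: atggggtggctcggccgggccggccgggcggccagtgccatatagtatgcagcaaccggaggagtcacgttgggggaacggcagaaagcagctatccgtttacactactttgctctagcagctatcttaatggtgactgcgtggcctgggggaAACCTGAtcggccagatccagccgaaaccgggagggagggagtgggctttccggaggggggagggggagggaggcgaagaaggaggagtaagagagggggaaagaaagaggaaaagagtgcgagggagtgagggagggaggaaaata
Eya4, chr10:23349841-23350140: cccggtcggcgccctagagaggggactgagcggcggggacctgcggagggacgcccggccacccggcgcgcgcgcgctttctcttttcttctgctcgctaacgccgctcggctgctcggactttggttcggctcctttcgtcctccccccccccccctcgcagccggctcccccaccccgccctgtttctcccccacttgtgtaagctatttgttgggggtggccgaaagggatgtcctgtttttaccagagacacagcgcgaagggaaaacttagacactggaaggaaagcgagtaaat
Dach1, chr14:98169716-98170015: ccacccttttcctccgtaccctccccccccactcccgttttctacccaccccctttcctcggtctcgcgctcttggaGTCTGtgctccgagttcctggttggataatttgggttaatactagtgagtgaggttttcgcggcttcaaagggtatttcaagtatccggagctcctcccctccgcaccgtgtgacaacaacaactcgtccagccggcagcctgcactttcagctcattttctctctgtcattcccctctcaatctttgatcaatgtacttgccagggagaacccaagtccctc
The TCAGGTT match of Six4, read on the opposite strand, is a motif that 4.07% of 32851 promoters of this length held. The other Six4 entry, chr12:73113376-73113675, which is not shown, held no such match. CAGAC matched once each in Six2, Six5, Eya3 and Dach1, and 49.6% of all promoters held it. No member promoter held TGATAC or TAATTA, which 5.46% and 5.29% of all promoters held. The share of G and C was 67.3% in the Six2 window, 60% in that of Six4, 64% in that of Eya4 and 54% in that of Dach1. A match of so few letters is a description of the sequence and not a bound site.

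The arrays were on 1 scale, with medians between 7.26 and 7.38, but some went against their labels. Tgfbr2, the targeted gene, was at 11.30 to 12.68 in the 12 knockout-labelled arrays (median 12.19) and at 11.28 to 12.16 in the 12 control arrays (median 11.76), a difference of 0.34 (SE 0.11, adjusted p = 0.112, limma). It was not lower where the receptor should be deleted, and whether its probe set lies inside the floxed part is not known here, so genotypes are named below only as labelled. Markers of the mandible (Hand1, Hand2, Dlx3 to Dlx6) averaged 9.41 to 10.31 in every mandible array and 7.42 to 8.34 in every maxilla array. By contrast 7 arrays correlated better with the other end of their jaw than with their own group. Among them were both ends of knockout mandible 1 and of control maxilla 1, and knockout maxilla proximal 3. The 4 control arrays with number 2 had the Y-linked gene Eif2s3y at 10.2 to 10.4, while it was at most 3.88 in the other 20 arrays. Xist was at 6.19 to 6.74 in these 4 arrays and at 13.58 or higher in the other 20. Y-linked signal was thus confined to control arrays, and sex was not balanced between the labels. Without the 4 arrays of knockout mandible 1 and control maxilla 1 the knockout-label comparisons called no member, the jaw comparisons 9 in place of 12 and the end comparisons 4 in place of 3. Without the 4 control arrays with number 2 these counts were 0, 5 and 0.

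Across the 8 groups the members separated into a variable and a flat set. The group means of Dach1 spanned 2.01 on the log2 scale, those of Eya2 1.82, those of Six2 1.77, those of Eya1 1.33, those of Eya4 0.94 and those of Six4 0.83. Spans of this size lay between the 84.2nd and the 96th percentile of the 14879 genes. Six5 and Eya3 were flat, with spans of 0.37 and 0.23 (53.7th and 26.7th percentile). Six2, Six4, Eya1, Eya2 and Eya4 all had their 2 highest group means in the maxilla. Dach1 did not share that order: its highest group was knockout maxilla proximal and its lowest, by a gap of 1.91 pooled SD, control mandible distal.

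**Figure D1:**
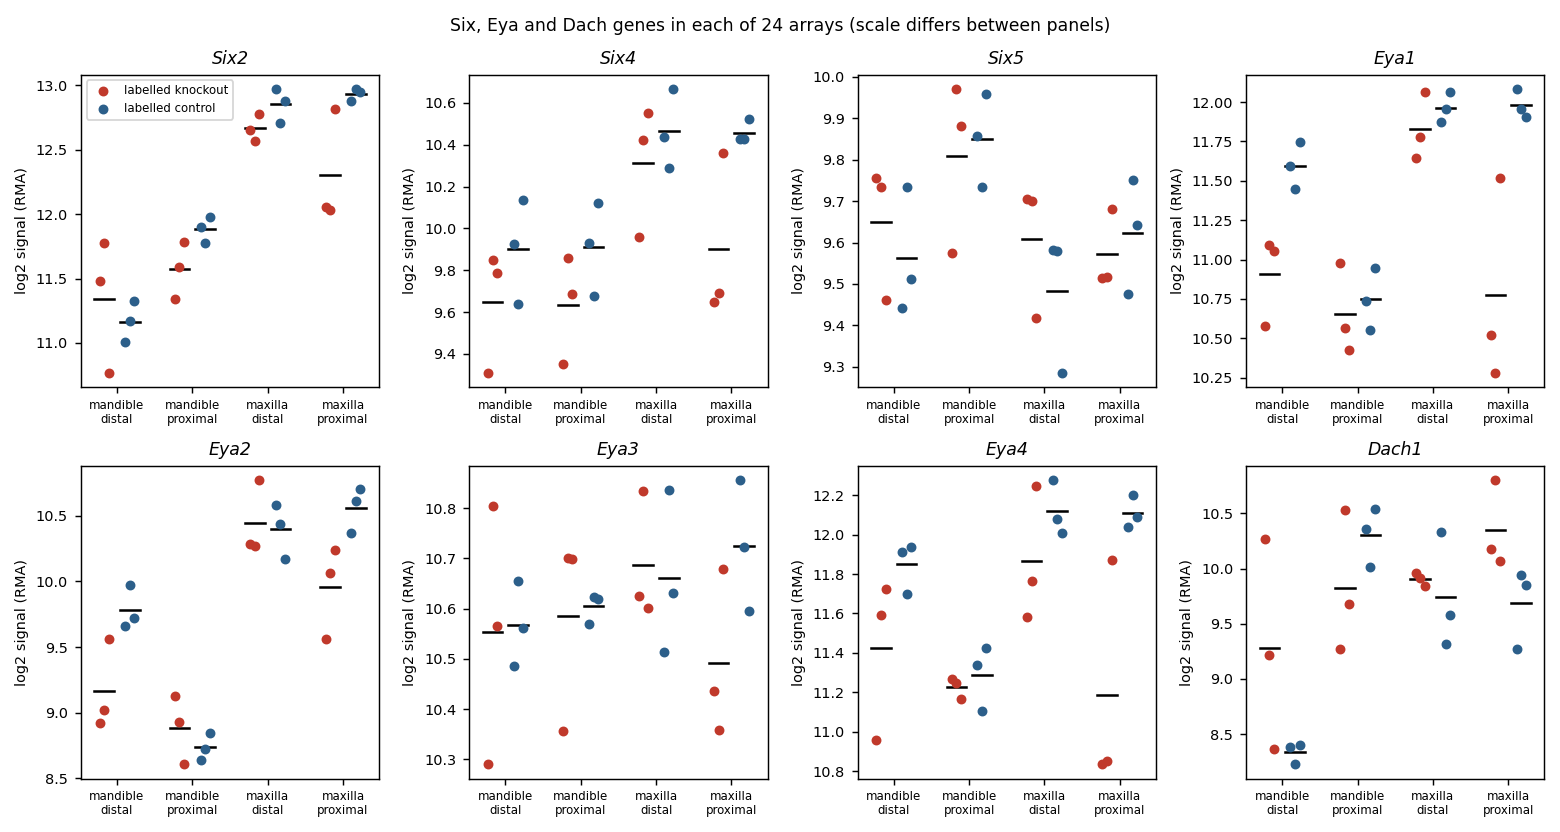
Log2 signal of the 8 genes in each of the 24 arrays, by jaw and end; each point is an array, red for labelled knockout and blue for labelled control, and each black line is a group mean. Six2 is higher in every maxilla array than in every mandible array, Eya1 and Eya4 have 2 low arrays in knockout maxilla proximal, and Dach1 is at 8.23 to 8.40 in control mandible distal; the vertical scale differs between panels.

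The clearest contrast within the network was between the jaws. Where a member differed between mandible and maxilla past the threshold, it was lower in the mandible, in all 12 such calls. Six2, a transcription factor that keeps nephron progenitors from differentiating in the kidney and is also expressed in facial mesenchyme, was at 11.48, 11.78 and 10.77 in knockout-labelled mandible distal arrays 1, 2 and 3, against 12.65, 12.57 and 12.78 in knockout-labelled maxilla distal arrays. In control distal ends it was at 11.00, 11.17 and 11.33 in the mandible, against 12.97, 12.71 and 12.88 in the maxilla. No distal mandible array reached the lowest distal maxilla array in either genotype. In proximal ends it was at 11.34, 11.59 and 11.79 in knockout-labelled mandible, against 12.05, 12.03 and 12.82 in knockout-labelled maxilla. In control proximal ends it was at 11.90, 11.78 and 11.98 in the mandible, against 12.88, 12.97 and 12.95 in the maxilla. Proximal values did not overlap between jaws either, and the third knockout-labelled maxilla array lay close to the control maxilla arrays, above the other two of its group.

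Six2 was thus lower in the mandible in all 4 comparisons. The log2 difference was -1.33 (SE 0.21, adjusted p = 0.00135) in knockout-labelled distal ends and -1.69 (SE 0.21, adjusted p = 0.000127), or 3.22-fold, in control distal ends. It was -0.73 (SE 0.21, adjusted p = 0.0287) in knockout-labelled proximal ends and -1.05 (SE 0.21, adjusted p = 0.00367) in control proximal ends. The knockout-labelled proximal call rested on few arrays: it was lost without knockout mandible proximal 1 (-0.61, adjusted p = 0.113) or 2 (-0.74, adjusted p = 0.0604) and without knockout maxilla proximal 3 (-0.47, adjusted p = 0.106). The 3 other calls passed with any 1 array left out. In bulk tissue, fewer cells of a type and less RNA per cell cannot be told apart.

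Six4 and Six5 moved less. Six4, which has roles in muscle and sensory development, lay between 9.31 and 10.14 in mandible arrays and between 9.65 and 10.67 in maxilla arrays. Its distal values did not overlap between jaws, nor did those of control proximal ends, but the differences of -0.66 (SE 0.21, adjusted p = 0.0548), -0.56 (SE 0.21, adjusted p = 0.0746) and -0.55 (SE 0.21, adjusted p = 0.0816) missed the threshold. A second probe set, 1439753_x_at, tracked it over the 24 arrays (r = 0.988) and passed in knockout-labelled distal ends (-0.65, SE 0.19, adjusted p = 0.0469). Six5, which lies beside the myotonic dystrophy gene Dmpk, lay between 9.29 and 9.97 in all 24 arrays, and no jaw difference of it passed (0.04 to 0.24).

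Among the Eya coactivators, Eya2 had the steadiest jaw difference. It was at 8.92, 9.02 and 9.56 in knockout-labelled mandible distal arrays, against 10.29, 10.27 and 10.77 in knockout-labelled maxilla distal arrays. In control distal ends it was at 9.66, 9.97 and 9.72 in the mandible, against 10.59, 10.44 and 10.17 in the maxilla. Distal values did not overlap, though the highest control mandible array lay close to the lowest control maxilla array. In proximal ends it was at 9.12, 8.93 and 8.61 in knockout-labelled mandible, against 9.56, 10.07 and 10.24 in knockout-labelled maxilla. In control proximal ends it was at 8.64, 8.73 and 8.85 in the mandible, against 10.37, 10.61 and 10.70 in the maxilla. The last pair showed the widest separation of any member between jaws, with every mandible array below every maxilla array by over 1 log2 unit.

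Eya2 was lower in the mandible in all 4 comparisons, by 1.28 (SE 0.20, adjusted p = 0.00106) in knockout-labelled distal, 1.07 (SE 0.20, adjusted p = 0.00187) in knockout-labelled proximal, 0.61 (SE 0.20, adjusted p = 0.0427) in control distal and 1.82 (SE 0.20, adjusted p = 5.47e-05) in control proximal ends. The control distal call was the weakest of these. It was lost with any 1 of 9 arrays left out, which were all 6 control mandible arrays (-0.71 to -0.55, adjusted p = 0.0506 to 0.128), control maxilla distal 1 (-0.52, adjusted p = 0.152) and 2 (-0.60, adjusted p = 0.1004), and control maxilla proximal 2 (-0.61, adjusted p = 0.0521). It was also lost when arrays were centred on their medians (-0.58, adjusted p = 0.0554). The calls of Eya2 in the 3 other comparisons passed with any 1 array left out.

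Eya1, which in mouse and human is required for ear, kidney and branchial arch structures, differed between jaws in 2 of the 4 comparisons. In knockout-labelled distal ends it was at 10.58, 11.09 and 11.05 in the mandible, against 11.64, 11.78 and 12.07 in the maxilla, a difference of -0.92 (SE 0.23, adjusted p = 0.0225). In control proximal ends it was at 10.74, 10.55 and 10.95 in the mandible, against 12.08, 11.96 and 11.91 in the maxilla, a difference of -1.24 (SE 0.23, adjusted p = 0.0024), or 2.36-fold. In neither pair did the jaws overlap. The first call was lost without knockout mandible distal 1 (-0.76, adjusted p = 0.109) or knockout maxilla distal 3 (-0.80, adjusted p = 0.110), while the second passed with any 1 array left out. In control distal ends Eya1 was at 11.59, 11.45 and 11.75 in the mandible, against 11.87, 11.96 and 12.06 in the maxilla without overlap but with a difference that did not pass (-0.37, SE 0.23, adjusted p = 0.311). In knockout-labelled proximal ends it was at 10.98, 10.56 and 10.42 in the mandible, against 10.52, 10.28 and 11.52 in the maxilla, and the jaws overlapped (-0.12, SE 0.23, adjusted p = 0.783). Whether the proximal jaw difference itself differed between the genotypes was not tested.

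Eya4, an Eya gene known for hearing and heart phenotypes in human, followed Eya1 closely. In control proximal ends it was at 11.34, 11.10 and 11.42 in the mandible, against 12.04, 12.20 and 12.09 in the maxilla. These values did not overlap, and the difference was -0.82 (SE 0.23, adjusted p = 0.0238). The call was lost without control mandible proximal 1 (-0.84, adjusted p = 0.0547) or 2 (-0.73, adjusted p = 0.0989) and without control maxilla proximal 1 (-0.85, adjusted p = 0.0646) or 2 (-0.77, adjusted p = 0.0657). No other jaw difference of Eya4 passed (-0.44 to 0.04). Eya3, the Eya gene with the flattest profile here, stayed between 10.29 and 10.86 in all 24 arrays, with jaw differences of -0.13 to 0.09 that did not pass.

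Dach1, the corepressor of the network, was lower in the control distal mandible. In control distal ends it was at 8.38, 8.23 and 8.40 in the mandible, against 10.33, 9.32 and 9.58 in the maxilla, a difference of -1.41 (SE 0.38, adjusted p = 0.0204), or 2.65-fold. The values did not overlap. The call was lost without control mandible distal 2 (-1.35, adjusted p = 0.0662) or control maxilla distal 1 (-1.11, adjusted p = 0.103). In control proximal ends the order was the other way, at 10.36, 10.02 and 10.54 in the mandible, against 9.27, 9.94 and 9.85 in the maxilla (0.61, SE 0.38, adjusted p = 0.301). In knockout-labelled arrays Dach1 scattered widely in the mandible, at 10.27, 9.21 and 8.37 in distal and 9.27, 10.53 and 9.68 in proximal ends, and the jaw differences of -0.62 and -0.52 did not pass. The first value of each end is from knockout mandible 1, whose arrays correlated better with the other end than with their own group.

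In counts, 3 of 8 members were called in knockout-labelled distal ends, where 7.88% of all genes tested were called and 4.3% were called lower, and 2 of 8 in knockout-labelled proximal ends, where these shares were 12.7% and 7.04%. In control distal ends 3 of 8 members were called against 14% (7.4% lower) of all genes, and in control proximal ends 4 of 8 against 14.5% (6.51% lower). Jaws did not overlap, in either direction, for 4 members in knockout-labelled distal ends (30% of all genes), 2 in knockout-labelled proximal ends (26.2%), 6 in control distal ends (36.1%) and 6 in control proximal ends (45.6%). These members were lower in the mandible, except Dach1 in control proximal ends, which was higher there (0.61). The median difference over the 8 members was -0.64, -0.19, -0.47 and -0.68 in that order, while the median over all genes lay between 0.01 and 0.04. The 4 comparisons use separate arrays. Skeletal muscle markers moved with the jaw as well: their mean was 10.54 to 10.85 in control mandible proximal arrays, against 6.61 to 7.14 in control maxilla proximal arrays, and 14 of 14 were called higher in the mandible, with 2 of them at a group mean under 6 in the maxilla. In the same comparison 6 of 10 epithelial markers were called lower and 1 higher in the mandible, and 3 of 11 neuron markers lower and 4 higher. In knockout-labelled distal ends 10 of 14 muscle markers were called higher in the mandible, with list means of 10.11 to 11.34 in the mandible, against 6.21 to 9.15 in the maxilla, and 4 of 11 neuron markers were called lower. In knockout-labelled proximal ends 10 of 11 neuron markers were called lower in the mandible, with list means of 8.49 to 8.76 in the mandible, against 10.53 to 12.58 in the maxilla, and 0 of 14 muscle markers were called. In control distal ends 4 of 11 neuron and 4 of 10 epithelial markers were called lower in the mandible, and 0 of 14 muscle markers were called. Of 6 facial mesenchyme markers 3 were called higher in the mandible in each proximal comparison and 1 in each distal comparison, with 0 called lower. Of 5 glial markers 2 were called lower in the mandible in knockout-labelled proximal and in control distal ends, with 0 called higher. The part of cell makeup in the member differences was not tested.

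**Figure D2:**
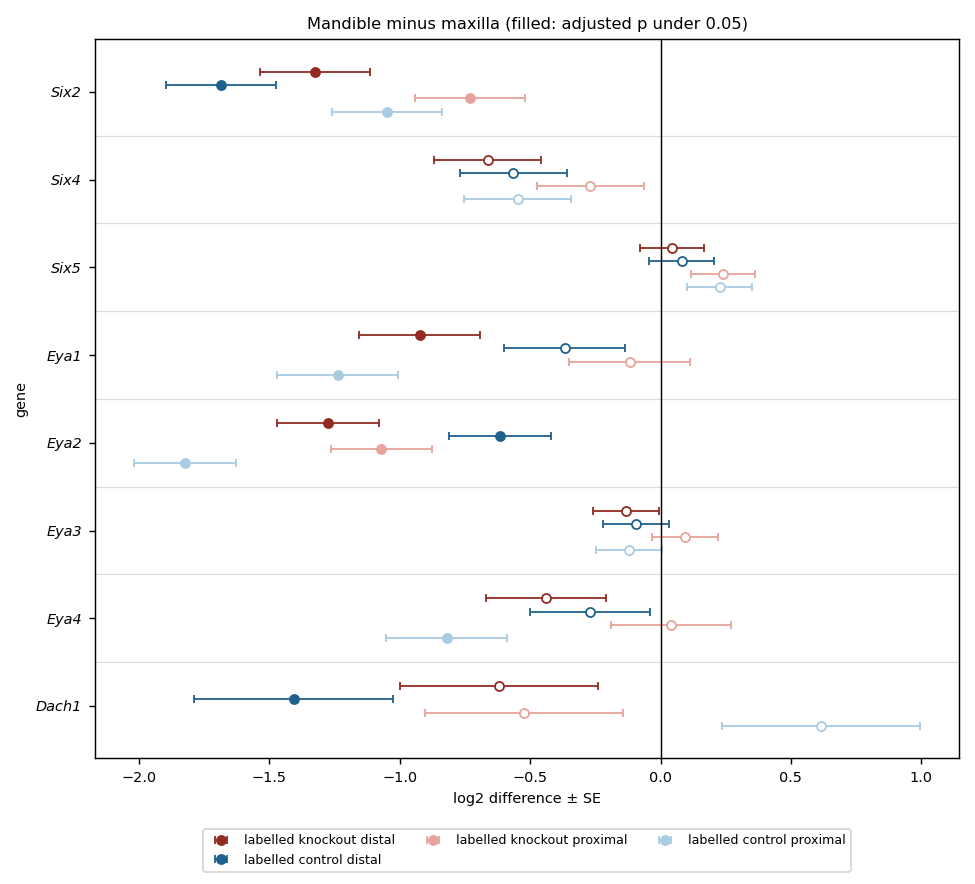
Mandible minus maxilla log2 difference with its standard error (limma) for each of the 8 genes in knockout-labelled and control distal and proximal ends; filled points have an adjusted p under 0.05. All filled points lie left of 0, Six2 and Eya2 are filled in all 4 comparisons, and Six5 and Eya3 stay near 0.

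Between the ends of the control mandible 2 of 8 members were called. Eya2 was higher distally, at 9.66, 9.97 and 9.72, against 8.64, 8.73 and 8.85 in proximal ends. Dach1 was lower distally, at 8.38, 8.23 and 8.40, against 10.36, 10.02 and 10.54 in proximal ends. For both genes the ends lay apart by more than the spread of either group. The log2 differences were 1.04 (SE 0.20, adjusted p = 0.0104) for Eya2 and -1.97 (SE 0.38, adjusted p = 0.0122), or 3.91-fold, for Dach1. The Eya2 call was lost without control mandible proximal 1 (1.00, adjusted p = 0.0623). The Dach1 call was lost without control mandible distal 3 (-1.998, adjusted p = 0.0535) or control mandible proximal 1 (-1.94, adjusted p = 0.0623) or 3 (-1.85, adjusted p = 0.0526). The distal control mandible arrays are the same ones that entered the distal jaw comparison.

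These 2 of 8 members stand beside 3.45% of all genes called between the ends of the control mandible, 1.11% higher and 2.34% lower in distal ends. Eya1 just missed, with distal values of 11.59, 11.45 and 11.75, against proximal values of 10.74, 10.55 and 10.95 (0.85, SE 0.23, adjusted p = 0.0508). Six2 (-0.72, SE 0.21, adjusted p = 0.068) and Eya4 (0.56, SE 0.23, adjusted p = 0.193) also did not overlap between ends, which made 5 of 8 members against 30.3% of all genes. Markers of muscle, neurons and glia moved with the end: 4 of 14, 7 of 11 and 5 of 5 were called lower distally, the muscle mean being 6.501 to 9.86 in distal arrays, against 10.54 to 10.85 in proximal arrays. Their part in the Eya2 and Dach1 differences was not tested.

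In the maxilla of knockout-labelled embryos Eya1 was higher distally, at 11.64, 11.78 and 12.07, against 10.52, 10.28 and 11.52 in proximal ends. The ends did not overlap, although the third proximal array lay close to the lowest distal one. Cell markers moved with the end too: 6 of 11 neuron markers were called lower distally, with list means of 9.13 to 9.60 in distal arrays, against 10.53 to 12.58 in proximal arrays. Of the epithelial markers 6 of 10 were called higher distally, with list means of 11.00 to 11.12 in distal arrays, against 8.63 to 10.42 in proximal arrays. Their part in the Eya1 difference was not tested. The difference was 1.06 (SE 0.23, adjusted p = 0.0192), 1 of 8 members beside 6.16% of all genes called and 2.9% called higher. It was lost without knockout maxilla distal 2 (1.08, adjusted p = 0.055) or 3 (0.94, adjusted p = 0.0666) and without knockout maxilla proximal 1 (0.93, adjusted p = 0.122) or 2 (0.81, adjusted p = 0.131). Ends did not overlap for 3 members, Eya1, Eya2 (0.49, adjusted p = 0.123) and Dach1 (-0.45, adjusted p = 0.463), against 21.2% of all genes. Between the ends of the knockout-labelled mandible and of the control maxilla limma called no member and no other gene (0% each), and no member had an unadjusted p under 0.05. In these jaws both ends of array 1 correlated better with the other end than with their own group, for example at r = 0.682 with the other end and 0.325 with its own group in knockout mandible distal 1. Without these 4 arrays 16 genes were called between the ends of the knockout-labelled mandible and 104 between those of the control maxilla. Whether the end labels of these arrays are exchanged was not tested.

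The tests of a change in the end difference did not separate the jaws. These 4 contrasts were added after the data were seen. In control arrays the distal minus proximal difference, mandible minus maxilla, was 1.21 (SE 0.28, adjusted p = 0.387) for Eya2 and -2.02 (SE 0.54, adjusted p = 0.396) for Dach1. No gene was called in that contrast (0%), while 4 of 8 members had an unadjusted p under 0.05. So Eya2 and Dach1 were called between ends in the control mandible but were not shown to differ between mandible and maxilla in that respect. In knockout-labelled arrays the same contrast called 0 of 8 members, beside 0.0336% of all genes, with 1 member, Eya1, at an unadjusted p under 0.05 (-0.80, adjusted p = 0.422).

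Over the 4 regions together, Eya1 was the 1 member of 8 called between knockout-labelled and control arrays, beside 0.47% of all genes called and 0.188% called lower. Its values in the 12 knockout-labelled arrays ranged from 10.28 to 12.07, and those in the 12 control arrays from 10.55 to 12.08, so the genotypes overlapped. The mean log2 difference was -0.53 (SE 0.12, adjusted p = 0.0488), close to the threshold, and the call was lost with any 1 of 19 of the 24 arrays left out (-0.57 to -0.47, adjusted p = 0.0534 to 0.102). It was also lost with genotype and array number as a random block (limma, adjusted p = 0.221). The 5 arrays without which it passed were knockout mandible distal 3, knockout maxilla distal 3, knockout maxilla proximal 3, control mandible distal 2 and control maxilla distal 1. Eya4 followed at -0.42 (SE 0.12, adjusted p = 0.0703), Six4 at -0.31 (SE 0.10, adjusted p = 0.105), Eya2 at -0.26 (SE 0.10, adjusted p = 0.137) and Six2 at -0.24 (SE 0.11, adjusted p = 0.185), none of which passed. In all, 6 of 8 differences were below 0, as were 46.3% of those of all genes, and the median was -0.25, against 0.01 over all genes.

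For Eya1 and Eya4 the knockout-label difference was largest in the proximal maxilla. Eya1 was at 10.52, 10.28 and 11.52 in knockout-labelled arrays, against 12.08, 11.96 and 11.91 in control arrays. Eya4 was at 10.83, 10.85 and 11.87 in knockout-labelled arrays, against 12.04, 12.20 and 12.09 in control arrays. Neither gene overlapped between the labels, and in both the third knockout-labelled array lay near the controls while the first and second lay far below. The third array correlated better with the other end (r = 0.378) than with its own group (0.205). The log2 differences were -1.21 (SE 0.23, adjusted p = 0.0127), or 2.31-fold, for Eya1 and -0.92 (SE 0.23, adjusted p = 0.0293), or 1.90-fold, for Eya4. These were 2 of 8 members beside 5.77% of all genes called and 2.53% called lower. Labels did not overlap for 6 of 8 members, against 25.3% of all genes, and the members' median was -0.58, while that over all genes was near 0.

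Both calls rested on single arrays. The Eya1 call was lost without knockout maxilla proximal 1 (-1.08, adjusted p = 0.0988) or 2 (-0.96, adjusted p = 0.0968) and without control maxilla proximal 1 (-1.16, adjusted p = 0.0662). The Eya4 call was lost without knockout maxilla proximal 1 (-0.75, adjusted p = 0.188) or 2 (-0.76, adjusted p = 0.166) and without control maxilla proximal 1 (-0.96, adjusted p = 0.0861), 2 (-0.88, adjusted p = 0.081) or 3 (-0.93, adjusted p = 0.0759). Without knockout maxilla proximal 3, in contrast, member calls rose to 4 over the 4 regions, 5 within regions and 9 between ends. Without both knockout maxilla proximal 1 and 2 the differences shrank to -0.46 for Eya1 and -0.24 for Eya4, neither called, and the difference of Eya1 over the 4 regions to -0.34 (adjusted p = 0.210). The end difference of Eya1 in the knockout-labelled maxilla shares these arrays and was 0.31 without them.

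The same 2 arrays differed in cell markers. The mean of 11 neuron markers was 12.58, 12.31 and 10.53 in knockout-labelled maxilla proximal arrays 1, 2 and 3, against 9.13 to 9.45 in control maxilla proximal arrays. The mean of 10 epithelial markers was 8.63, 8.71 and 10.42 in the knockout-labelled arrays, against 10.41 to 10.83 in the control arrays. The mean of 6 facial mesenchyme markers was 11.88, 11.82 and 12.46 in the knockout-labelled arrays, against 12.34 to 12.64 in the control arrays. Arrays 1 and 2 were therefore high in neuron markers and low in epithelial and mesenchyme markers, and these were the arrays low in Eya1 and Eya4. Of the lists, 7 of 11 neuron, 3 of 5 glial and 3 of 14 muscle markers were called higher, 6 of 10 epithelial markers lower and 0 of 6 facial mesenchyme markers. No neuron marker had a group mean under 6 in knockout maxilla proximal. The part of these cells in the Eya1 and Eya4 differences was not tested.

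**Figure D3:**
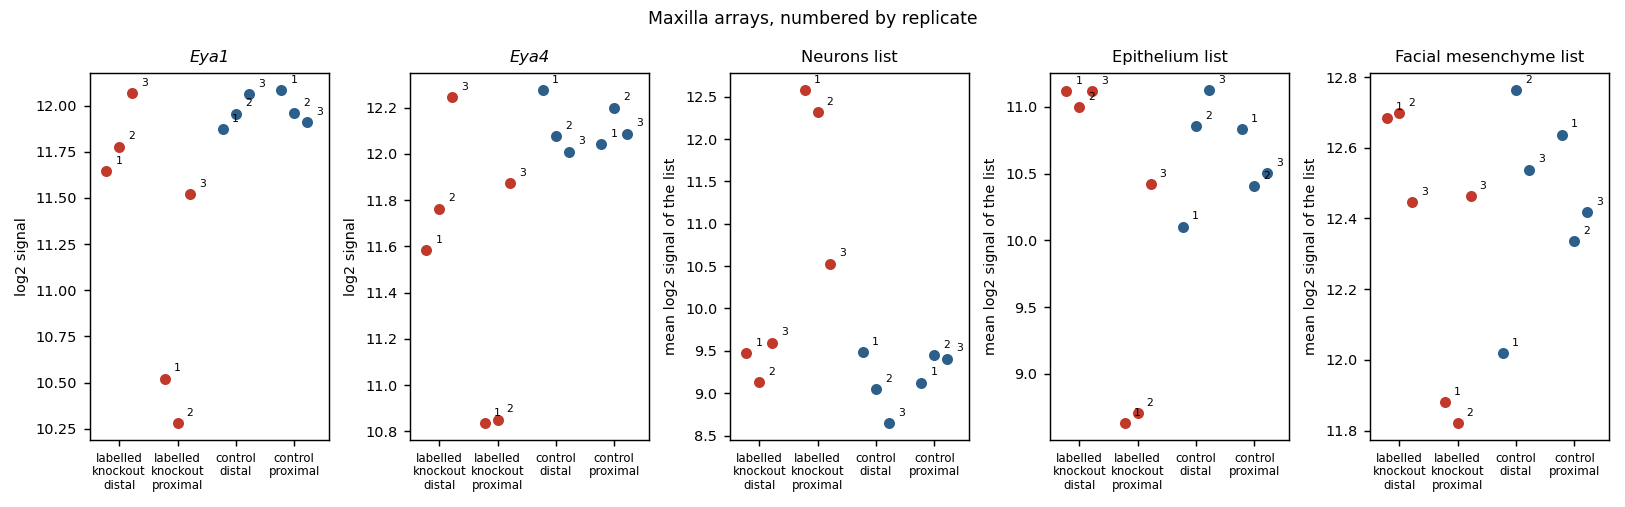
Maxilla arrays by label and end, numbered by replicate: log2 signal of Eya1 and Eya4, and mean log2 signal of the neuron, epithelium and facial mesenchyme marker lists; red is labelled knockout and blue control. Knockout maxilla proximal 1 and 2 are low in Eya1, Eya4, epithelium and facial mesenchyme and high in neurons, at 12.58 and 12.31, and array 3 lies nearer the other arrays.

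Elsewhere no member was called between the labels. The 4 other members that missed the threshold without overlapping in the proximal maxilla were Six2 (-0.63, SE 0.21, adjusted p = 0.0747), Six4 (-0.56, SE 0.21, adjusted p = 0.101), Eya2 (-0.60, SE 0.20, adjusted p = 0.0674) and Dach1, which was higher in each knockout-labelled array (0.66, SE 0.38, adjusted p = 0.280). In the distal mandible limma called 0 of 8 members, beside 0.134% of all genes, and 3 had an unadjusted p under 0.05. Eya1 was at 10.58, 11.09 and 11.05 in knockout-labelled arrays, against 11.59, 11.45 and 11.75 in control arrays (-0.69, SE 0.23, adjusted p = 0.224). Eya2 was at 8.92, 9.02 and 9.56 in knockout-labelled arrays, against 9.66, 9.97 and 9.72 in control arrays (-0.61, SE 0.20, adjusted p = 0.205). These 2 members did not overlap between labels, against 14.5% of all genes. Dach1 was at 10.27, 9.21 and 8.37 in knockout-labelled arrays, against 8.38, 8.23 and 8.40 in control arrays (0.95, SE 0.38, adjusted p = 0.303). Thus 1 knockout-labelled array lay among the controls. The first and second knockout-labelled arrays correlated better with the other end (r = 0.682 and 0.614) than with their own group (0.325 and 0.555). All 14 muscle markers were higher in knockout-labelled arrays (median difference 2.83, 0 called). So were all 5 glial markers (median difference 1.16, 1 called). No neuron, epithelial or facial mesenchyme marker was called. The part of cell makeup in these member differences was not tested.

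In the proximal mandible and the distal maxilla 0 of 8 members were called by limma, beside 0.0538% and 0.0202% of all genes, and no member had an unadjusted p under 0.05. The differences there ran from -0.48 for Dach1 to 0.15 for Eya2 in the proximal mandible, and from -0.26 for Eya4 to 0.16 for Dach1 in the distal maxilla. The 4 regions share no arrays, but the label difference itself was not shown to vary between them. Mandible minus maxilla, the change in the label difference was at most 0.35 in size for any member (adjusted p = 0.864 or higher; 0 of 8 called, beside 0.0336% of all genes, none at an unadjusted p under 0.05). Distal minus proximal it was at most 0.47 (adjusted p = 1.00 for each; 0 of 8 called, beside 0.00672% of all genes, 1 at an unadjusted p under 0.05). Within the maxilla alone the distal minus proximal change was 1.08 for Eya1 (SE 0.33, adjusted p = 0.340) and 0.67 for Eya4 (SE 0.33, adjusted p = 0.509), where 0 of 8 members and 0.0403% of all genes were called, and 2 members had an unadjusted p under 0.05. Within the mandible it was -0.76 for Eya2 (SE 0.28, adjusted p = 0.863) and 1.43 for Dach1 (SE 0.54, adjusted p = 0.882), where no gene was called (0%) and these 2 members had an unadjusted p under 0.05.

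**Figure D4:**
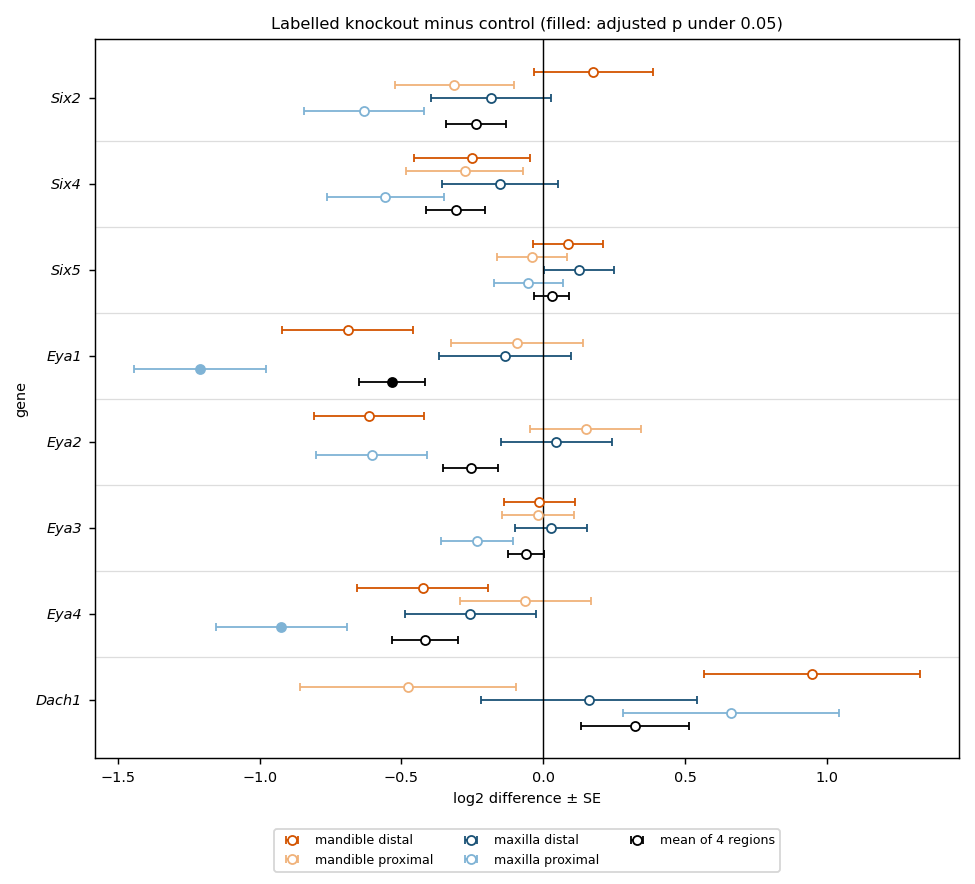
Labelled knockout minus control log2 difference with its standard error (limma) for each gene in each region and as the mean of the 4 regions; filled points have an adjusted p under 0.05. The filled points are Eya1 and Eya4 in the proximal maxilla and Eya1 in the mean, all below 0, and Dach1 is the gene with positive differences in 3 of 4 regions and the widest errors.

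The members' profiles were alike to different degrees. Over the 8 group means Eya1 and Eya4 correlated at r = 0.986, and over the 24 arrays after removing group means still at 0.860. Both genes spread most within knockout maxilla proximal (SD 0.66 for Eya1 and 0.60 for Eya4). The arrays of that group, which also differed in cell markers, therefore weigh most in the second value. Six4 correlated with Six2 at 0.887, with Eya1 at 0.883, with Eya2 at 0.857 and with Eya4 at 0.847. Dach1 was only weakly and negatively related to Eya1 (-0.329) and Eya4 (-0.392), and correlated with Six2 at 0.531. Six5 ran against Eya2 (-0.814). These values describe 8 points that share arrays and dissections, without a test. Among all genes tested, the 3 with profiles most like Six2 over the 8 group means were Sox5 (r = 0.994), Fbxl20 (0.993) and Trp53inp1 (0.993). Those most like Eya1 were Chek2 (0.994), 5430405H02Rik (0.992) and Zdhhc18 (0.991). Those most like Eya2 were Gata3 (0.986), Hey1 (0.985) and Pdlim5 (0.984), and those most like Dach1 were Tspyl5 (0.983), Zkscan16 (0.977) and Tmub1 (0.970).

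Gata3, the closest match to Eya2 by this measure, averaged 6.60 in control mandible proximal and 9.82 in control maxilla proximal, which puts it at its lowest and highest in the same groups as Eya2. Sox5 averaged 8.52 in control mandible distal and 9.87 in control maxilla proximal, again the lowest and highest groups of Six2. These genes were picked for likeness, and no statement on shared control follows.

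Members with several probe sets gave partly different pictures. The 2 other Eya1 probe sets, 1443117_at and 1421727_at, followed the one used (r = 0.927 and 0.853 over 24 arrays) and differed by -1.08 (adjusted p = 0.113) and -1.20 (adjusted p = 0.0795) between the labels in the proximal maxilla. The Eya4 probe sets 1456665_at and 1456647_a_at differed there by -1.13 (adjusted p = 0.0525) and -0.83 (adjusted p = 0.106). The size of the Eya1 and Eya4 differences was thus alike across probe sets, but among single probe sets it passed only on the brightest one. With the mean of all probe sets the count of member calls within regions stayed at 2. Between the jaws the Eya1 differences in knockout-labelled distal and control proximal ends passed on 1443117_at (-1.54, adjusted p = 0.0229, and -1.89, adjusted p = 0.00422) and not on 1421727_at (-0.56, adjusted p = 0.332, and -0.97, adjusted p = 0.0773). The Eya1 end difference of the knockout-labelled maxilla passed on neither (1.13, adjusted p = 0.0952, and 0.85, adjusted p = 0.189). The Eya4 jaw difference in control proximal ends did not pass on 1456665_at (-0.82, adjusted p = 0.0716), on 1456647_a_at (-0.31, adjusted p = 0.474) or with the mean of all probe sets (-0.54, adjusted p = 0.0948). For Dach1 the end difference of the control mandible passed on 1420695_at (-1.38, adjusted p = 0.0421) and not on 1420694_a_at (-0.74, adjusted p = 0.102), whereas the distal jaw difference in control arrays passed on 1420694_a_at (-0.85, adjusted p = 0.0248) and not on 1420695_at (-0.47, adjusted p = 0.399). The Six4 probe set 1425767_a_at (r = 0.230) and the Eya3 probe set 1425989_a_at (r = -0.018) did not follow the ones used. Six4, Eya3 and Eya4 each had 1 further probe set that was above the 30th percentile in none of the arrays.

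Of the other family genes tested, Six3 was called between the jaws, while Six6 and Dach2 were not. Six3, a homeodomain factor of the forebrain and eye that lies next to Six2 on chromosome 17, averaged 6.92 and 6.79 in knockout-labelled distal and proximal mandible, against 9.16 and 8.53 in the same ends of the maxilla. In controls it averaged 6.79 and 6.799 in distal and proximal mandible, against 9.10 and 9.23 in the maxilla. Its jaw differences of -2.24, -1.74, -2.31 and -2.43 all passed (adjusted p = 0.000821, 0.00249, 0.00037 and 0.000276) on 1427523_at, while its 2 dimmer probe sets had group means between 4.12 and 5.01. Six6, an eye and pituitary factor, averaged 5.20 to 5.39 in the mandible groups, below the 30th percentile of the arrays, and 6.09 to 7.87 in the maxilla groups, with no call. The highest of these means, in knockout maxilla proximal, covers arrays from 5.31 to 10.61 (SD 2.65). Dach2 averaged 7.44 to 8.56, with no call in any comparison.

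Of 28 genes listed as regulators, partners or targets of the network, all were tested. In control proximal ends 6 were called higher and 4 lower in the mandible, beside 14.5% of all genes called and 6.51% called lower. The higher ones were Osr1 (1.59, SE 0.42), Hoxa2 (5.37, SE 1.09), Tcf21 (3.44, SE 0.47) and the myogenic factors Myf5 (2.72, SE 0.72), Myod1 (4.09, SE 0.79) and Myog (4.59, SE 0.98). These myogenic factors are also on the muscle marker list above. The lower ones were Pax7 (-2.06, SE 0.53), Sobp (-0.91, SE 0.22), Skil (-0.24, SE 0.07) and Gdnf (-1.46, SE 0.17). Hoxa2, a Hox gene that represses Six2 in the second branchial arch of the mouse, averaged 9.76 ± 1.20 in control mandible proximal and 4.39 ± 0.24 in control maxilla proximal (SD, n = 3 each). In control mandible distal, where Six2 had its lowest group mean (11.17, against 11.88 in control mandible proximal), Hoxa2 averaged only 4.95. Its arrays in knockout mandible proximal ran from 5.41 to 10.97. A part of Hoxa2 in the Six2 differences was not tested. Gdnf, a target of the network in the kidney, moved with the members in controls, being lower in the mandible there.

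In the other jaw comparisons 6 were called higher and 1 lower in knockout-labelled distal ends, 2 and 2 in knockout-labelled proximal ends, and 1 and 2 in control distal ends. The shares of all genes called were 7.88%, 12.7% and 14% in that order. Osr1, a zinc-finger factor of early mesenchyme, was higher in the mandible in all 4. Pax7, which marks crest and muscle precursors, was lower in the control distal mandible by 4.74 (SE 0.53, adjusted p = 4.61e-05). Its values there were 5.80 to 7.60, the lowest of them near background. Between ends of the control mandible 1 was called higher distally, Slc12a2, and 6 lower, Pax7, Osr2, Ccnd1, Hoxa2, Myf5 and Tcf21, beside 3.45% of all genes called. Between the labels 1 was called in the distal mandible, Tcf21, which was higher in knockout-labelled arrays (2.78, SE 0.47, adjusted p = 0.014), and 2 in the proximal maxilla, where Tle4, a Groucho-type corepressor, was higher (0.44, SE 0.12, adjusted p = 0.0344) and Gdnf lower (-0.69, SE 0.17, adjusted p = 0.0288). The shares of all genes called there were 0.134% and 5.77%. Tcf21 ranged from 4.87 to 6.65 in control mandible distal arrays, near background. Over the 4 regions 0 of 28 were called by limma between the labels, beside 0.47% of all genes, and the list's median difference was 0.07, against 0.01 over all genes.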

How the data were processed

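Total RNA of 24 samples was labelled with biotin and hybridised to single-colour arrays of 45101 probe sets. The authors deposited log2 values after RMA (background correction, quantile normalisation and median polish), the tool per the submitters' processing notes and the log2 scale from the values; the version of RMA is not given here. RMA can pull strong differences together and hides differences in total RNA. Depth has no meaning for arrays, so the number of arrays limits precision.

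Symbols came from the platform annotation: 34945 probe sets had 1 symbol, 932 several, 9160 none, and 64 were controls. Each gene was read from its brightest probe set. Genes above the 30th percentile of at least 3 arrays were tested (14879) with limma 3.58.1 (R 4.3.3), on 8 group means with 16 residual degrees of freedom, two-sided, adjusted by Benjamini-Hochberg within each of 15 comparisons and called at an adjusted p under 0.05. The script was tested on simulated data. Text names all members, other Six, Eya and Dach genes, called genes of the network list and the 3 genes most like each member whose group means span over 1. Members, lists and comparisons were chosen with earlier results of these data known.

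Array numbers did not pair samples across genotypes: arrays of 1 number in the same region of both genotypes correlated at a median of 0.051 (12 pairs, 5 over 0.1). Within a genotype, arrays of 1 number deviated together in part, at a median of 0.152 (36 pairs, 23 over 0.1), against -0.112 (72 pairs, 12 over 0.1) for other numbers, but not in every pair. The number was therefore tried as a block only as an alternative, beside other filters, scalings, probe sets, priors, array weights, sample subsets and each array left out. Promoter sequences are RefSeq's.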

Additional observations from a re-analysis of the deposited data

How the results depend on the processing

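The 18 member changes called were refitted 699 times under the alternatives: all 699 kept their direction, 590 kept the threshold and 109 lost it, 55 of these in the 432 fits with 1 array left out. Only Eya1 over the 4 regions was called with groups that overlapped. For the other changes, leaving arrays out could not reverse the direction, so the kept direction says little there. With 1 array left out, members called ran from 0 to 4 for knockout against control over the 4 regions (1 in the report), 0 to 5 within regions (2), 10 to 14 between jaws (12), 1 to 9 between ends (3), and 0 to 0 for the change of the label difference (0). Over the 4 regions the count was 0 with the mean of all probe sets, without a filter, with genotype and number as a random replicate block, without both ends of control maxilla 1 and of knockout mandible 1 (4 arrays), without the 4 control arrays with number 2 and without knockout maxilla proximal 1 and 2, 3 with the array number as a fixed replicate block, and 4 with array weights. Within regions it was 6 with array weights, and 0 with only the groups compared and under each of those 3 subsets of arrays. Between jaws it was 5 without the 4 control arrays with number 2, and 14 and 15 with replicate blocks. Between ends it was 8 with array weights, 5 with only the groups compared, 5 with the number as a fixed replicate block, 5 with that block within 1 genotype, 6 with the random replicate block and 0 without the 4 control arrays with number 2. The random replicate block ended the Eya1 call over the 4 regions (-0.53, adjusted p = 0.221), and the number as a fixed replicate block within 1 genotype ended the calls of Eya1 between knockout distal jaws (-0.92, adjusted p = 0.0924), Six2 between knockout proximal jaws (-0.73, adjusted p = 0.149) and Eya1 between knockout maxilla ends (1.06, adjusted p = 0.0817). The change of the label difference had 1 call with array weights. The cause was not tested. Counts of all genes moved by more than 1.5 times too: between the labels over the 4 regions from 70 to between 6 and 2906, in the proximal maxilla from 859 to between 0 and 3366, and between control proximal jaws from 2151 to between 649 and 6001. The added contrasts reached 3 member calls without knockout maxilla proximal 3. Signals near or below the 30th percentile, 5.85 to 5.93, such as those of Six6 in the mandible and of Hoxa2 and Tcf21 in the control maxilla, are limited by background.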
